A study of Homo sapiens with 21 samples.

Results

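The MYC, MAX and MXD network is a set of transcription factors that share dimer partners, and its transcripts were followed here in BT-549 cells, an established TNBC cell line. The members were the gene rows whose Ensembl identifiers carry the symbols MYC, MYCN, MYCL, MAX, MXD1, MXI1, MXD3, MXD4, MNT and MLX, 10 of the 42339 rows in the count table. The 7 conditions had 3 libraries each, 21 in all. The 2D cells grew as monolayers, and the 3D cells were mammospheres at passage 6, untreated or exposed to 0.75 μM GO-203, a peptide directed at the CQC motif of MUC1-C. Mammospheres that carry tet-MUC1shRNA, at passage 6, or tet-MYCshRNA, at passage 8, received 0.1% DMSO as vehicle or 500 ng/ml DOX, which switches on the shRNA. Each tet line carries 1 hairpin, the passage differs between the tet lines, and DOX was given without a line carrying a control hairpin among these groups, so an effect of the drug itself cannot be told apart from that of the hairpin. The 3D cells were labelled as control rather than as vehicle. The study's methods give the RNA as coming from triplicate cultures, while the labels only number the libraries and name no day or batch, so p-values measure the spread between cultures of 1 cell line.

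MYC, MYCN and MYCL are basic helix-loop-helix leucine zipper activators that bind DNA only as dimers with MAX. The sequence they favour is CACGTG, the E-box, and the genes they raise serve ribosome production, nucleotide synthesis and cell growth. MXD1, MXI1, MXD3, MXD4 and MNT compete for MAX and, through the SIN3 and HDAC corepressor, lower genes at the same sites. MLX is the partner of MondoA and ChREBP, which sense glucose, and links this arm to MNT and some MXD proteins. MYC is often overexpressed in TNBC.

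Library totals ran from 38026597 to 99751717 counts. Values are given as CPM, counts scaled to a common library size over the 21 libraries, and as CPM per kb of exon where genes are compared with each other. The mesenchymal markers VIM at 1076 to 2486 CPM and ZEB1 at 88.0 to 339 were present in each library, while CDH2 at 11.3 to 452 and FN1 at 441 to 13250 varied widely. Epithelial EPCAM and CDH1 stayed at or below 0.125 and 1.51 CPM, and the hormone receptor genes ESR1 and PGR at or below 1.48 and 0.0684. ERBB2 was at 18.4 to 42.0 CPM. Of the markers of other cell types, CD3E, CD68 and PTPRC reached 0.0653, 0.690 and 1.49 CPM at most, and PECAM1, an endothelial gene, reached 10.1. The CD68 value is less certain, since 81.6% of its exon bases are shared with another gene on the same strand. In the tet-MUC1shRNA line, MUC1 was at 101, 83.2 and 86.6 CPM with vehicle and 19.7, 21.2 and 23.3 with DOX. In the tet-MYCshRNA line, DOX went with more MUC1 mRNA, at 139, 194 and 167 CPM against 66.5, 67.1 and 73.4 with vehicle (log2 fold change 1.25, standard error 0.11, adjusted p = 5.1e-06, edgeR).

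The promoters of the members are shown where they hold a CACGTG E-box, the site the network binds, or belong to the repressor with the widest range of levels. RefSeq lists 12 start sites for 9 of the 10 members, and MYC has no entry in the table used. The 250 bases before each start site (GRCh38.p14) were searched for CACGTG, which reads the same on both strands, and 6.34% of the 35116 windows in the table hold it. It was found before 3 of the 12 start sites, those of MXD4, MNT and MLX. The bases below are those upstream that lie in no annotated exon, written 5′ to 3′ on the strand of the gene, with the E-box in capitals: for MXD4 chr4:2262110-2262359 on the minus strand, for MNT chr17:2401105-2401310 on the minus strand, and for MLX chr17:42566850-42567071 on the plus strand. Counted back from the start site, the E-box begins at -238 in MXD4, -193 in MNT and -50 in MLX.
MXD4: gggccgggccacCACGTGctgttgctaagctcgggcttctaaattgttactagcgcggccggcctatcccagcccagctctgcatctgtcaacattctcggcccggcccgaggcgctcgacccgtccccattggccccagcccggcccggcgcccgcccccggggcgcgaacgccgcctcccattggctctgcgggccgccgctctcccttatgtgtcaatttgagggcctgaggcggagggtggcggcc
MNT: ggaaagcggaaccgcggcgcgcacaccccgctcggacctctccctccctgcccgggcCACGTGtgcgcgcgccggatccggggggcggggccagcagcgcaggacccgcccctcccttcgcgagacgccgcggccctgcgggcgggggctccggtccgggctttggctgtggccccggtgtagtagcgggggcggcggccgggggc
MLX: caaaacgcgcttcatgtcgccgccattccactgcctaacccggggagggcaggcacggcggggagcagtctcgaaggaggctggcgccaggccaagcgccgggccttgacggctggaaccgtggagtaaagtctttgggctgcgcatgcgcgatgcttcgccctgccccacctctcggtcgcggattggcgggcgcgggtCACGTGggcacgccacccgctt
MXI1 has 3 listed start sites, none of them with CACGTG. The second, with chr10:110209981-110210230 on the plus strand shown here, holds the shorter letters GCGTG at -127 and ACGTG at -113, the latter read on the other strand, and both stand in capitals.
MXI1: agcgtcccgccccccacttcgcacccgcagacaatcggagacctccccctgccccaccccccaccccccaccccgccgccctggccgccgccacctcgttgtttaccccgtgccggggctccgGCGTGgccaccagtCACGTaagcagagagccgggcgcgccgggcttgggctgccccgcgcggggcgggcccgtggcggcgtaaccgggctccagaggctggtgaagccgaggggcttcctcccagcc
The third MXI1 start site has GCGTG at -131. ACGTG and GCGTG, the core bound by the hypoxia-inducible factors, were searched on both strands, and 43.2% of all windows hold one or the other. ACGTG lies inside CACGTG, so the E-box promoters hold it too, MLX has a further core at -42, and MXD3 and the first start site of MAX have one at -32 and -22. A match describes the letters in a window and not a bound site.

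Among the activators, MYC (ENSG00000136997.21; chromosome 8, 127735434 to 127742951, GRCh38) carried nearly all of the MYC-family mRNA. In 2D cells it stood at 90.5, 87.4 and 78.4 CPM, and in 3D cells at 590, 553 and 601. The 3 3D libraries were far above those of 2D cells, with no overlap. MYCL (ENSG00000116990.11), a paralog first known from lung cancer, was at 0.651 ± 0.225 CPM in 2D and 2.35 ± 0.225 in 3D cells (SD, n = 3 each). Per kb of exon, MYC was at 95.2 and MYCL at 0.472 in 3D cells. MYCN (ENSG00000134323.12), the paralog of neuroblastoma, had 2 counts in 1 library, tet-MUC1shRNA with vehicle, and 0 or no value in the other 20. That is below a floor of 3 counts, and no fold was formed.

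Ordered by mean, MYC was highest in 3D cells at 581 CPM, followed by GO-203-treated 3D cells at 564, vehicle-treated tet-MYCshRNA mammospheres at 415, DOX-treated tet-MUC1shRNA mammospheres at 286, DOX-treated tet-MYCshRNA mammospheres at 274, vehicle-treated tet-MUC1shRNA mammospheres at 245 and 2D cells at 85.4. The libraries of 3D cells with and without GO-203 overlapped, as did those of both DOX-treated groups and those of the MYC-silenced and the vehicle-treated tet-MUC1shRNA mammospheres. The remaining neighbours did not overlap. The 3 mammosphere groups without drug or silencing thus spanned 245 to 581 CPM of MYC. Both ends of that span are at passage 6, and line and vehicle cannot be told apart between them. The tet-MYCshRNA mammospheres differ in passage as well. Over the 7 groups the highest mean was 6.81-fold the lowest for MYC and 7.30-fold for MXI1, the widest range of the 9 members with a level in every group. MAX, the common partner, ranged least, at 1.44-fold.

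**Figure D1:**
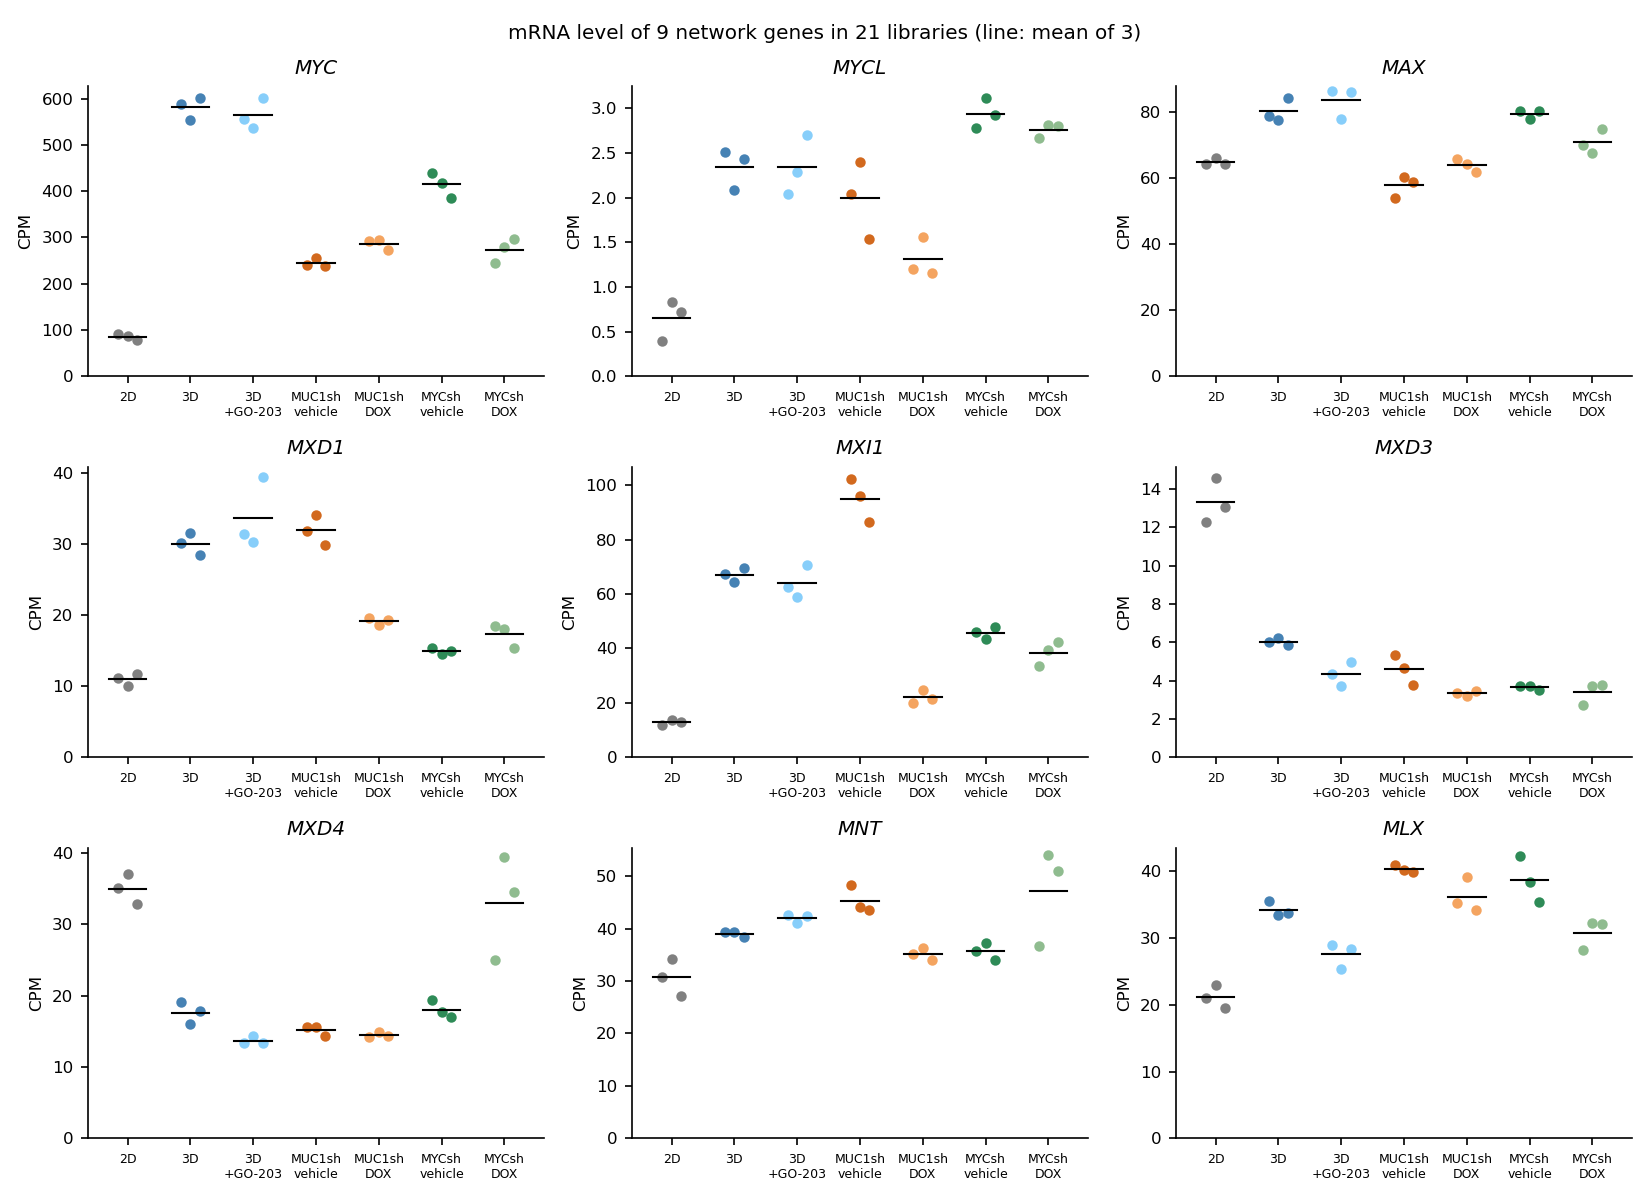
CPM (y axis, linear, from 0) of the 9 members other than MYCN in the 21 libraries, 1 point per library and 3 per condition on the x axis, with the mean as a line. MYC and MXI1 are lowest in 2D cells (85.4 and 13.0 CPM on average), MXD3 and MXD4 are highest there (13.3 and 35.0 CPM), and the MXI1 points fall from 94.9 to 22.1 CPM on average between vehicle and DOX in the tet-MUC1shRNA line.

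The first comparison asked which members differ between 3D and 2D cells. Of the 9 members tested, 7 were higher and 2 lower in 3D cells, beside 32.0% of all 19190 genes tested that were higher and 31.7% that were lower at an adjusted p below 0.1. MYC was 6.79-fold higher (log2 fold change 2.76, standard error 0.06, adjusted p = 2.1e-15, edgeR). The repressor MXI1 (ENSG00000119950.21; chromosome 10, 110207605 to 110287365) rose from 12.04, 13.8 and 13.2 CPM in the 2D libraries to 67.2, 64.6 and 69.6 in the 3D libraries. Its 3D libraries all lay above the 2D libraries, and the fold was 5.14 (log2 fold change 2.36, standard error 0.07, adjusted p = 4.6e-14, edgeR). MXD1 (ENSG00000059728.11), which is typical of differentiating cells, went from 11.2, 10.1 and 11.7 to 30.2, 31.6 and 28.4 CPM (log2 fold change 1.45, standard error 0.09, adjusted p = 3.7e-10, edgeR).

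Other members of the MXD family moved the opposite way. MXD4 (ENSG00000123933.17) was at 35.0, 37.1 and 32.8 CPM in 2D and 19.1, 16.0 and 17.8 in 3D cells, and MXD3 (ENSG00000213347.10), the one member of the family often seen in dividing cells, at 12.3, 14.6 and 13.1 against 6.02, 6.23 and 5.84. For both genes each 2D library was above each 3D library. The log2 fold changes were -0.99 for MXD4 (standard error 0.08, adjusted p = 1.9e-08, edgeR) and -1.15 for MXD3 (standard error 0.11, adjusted p = 1.3e-07, edgeR). Reads of MXD3 are less certain, since 19.5% of its exon bases are shared with RAB24 on the same strand and 24.2% with PRELID1 on the other. Opposite-strand genes also share 18.2% of the exon bases of MLX, 16.1% of those of MAX and 12.2% of those of MNT, and at most 4.55% of those of the remaining members, and the strand setting of the counting is not given in the sources used here. Thus the repressors did not change as a block, and MXI1 and MXD1 rose where MXD3 and MXD4 fell.

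MNT, the most constant repressor, rose little, from 30.7, 34.3 and 27.1 to 39.3, 39.3 and 38.4 CPM (log2 fold change 0.34, adjusted p = 0.00131, edgeR). MLX went from 21.03, 23.0 and 19.6 to 35.5, 33.5 and 33.7 CPM (log2 fold change 0.69, adjusted p = 6.8e-07, edgeR), and MYCL was 3.53-fold higher (adjusted p = 1.8e-05, edgeR). MAX was at 64.3, 66.2 and 64.4 CPM in 2D and 78.7, 77.7 and 84.3 in 3D cells (log2 fold change 0.30, adjusted p = 2.97e-04, edgeR). In all 9 members the libraries of the groups did not overlap, as was so for 64.3% of all genes tested. When vehicle-treated tet-MUC1shRNA mammospheres took the place of the 3D cells, MAX was lower than in 2D cells (log2 fold change -0.17, adjusted p = 0.0202, edgeR), whereas the other 8 members kept their direction and their call. Past a log2 fold change of 1.5 were MYC, MYCL and MXI1, 3 of 9, beside 16.2% of all genes. As in any bulk measurement, fewer cells of a kind and less RNA per cell cannot be told apart.

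**Figure D2:**
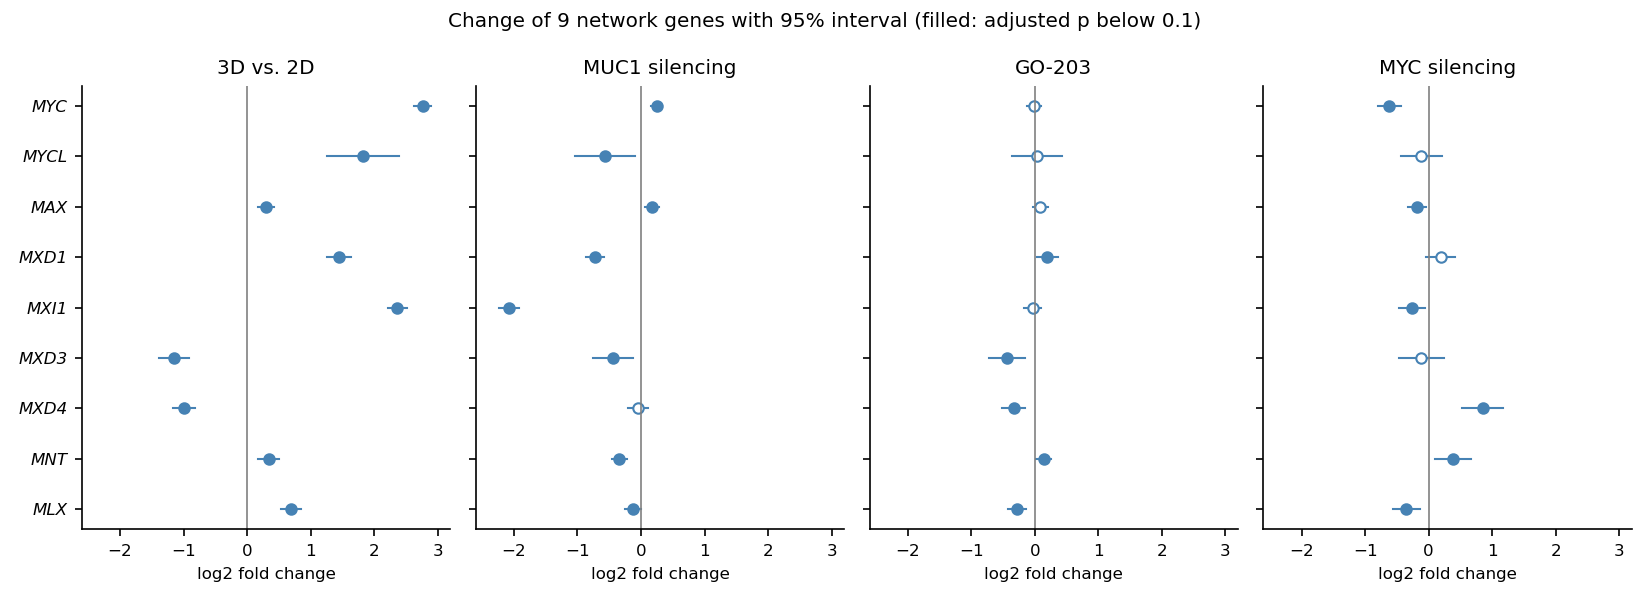
Log2 fold change (x axis) of the 9 tested members (y axis) in the 4 comparisons, with 95% intervals as lines and an adjusted p below 0.1 as filled points. In 3D vs. 2D cells all 9 points are filled and reach 2.76 for MYC, while the MXI1 point lies at -2.08 on MUC1 silencing and the MYC point at -0.62 on MYC silencing.

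MUC1 silencing in the tet-MUC1shRNA mammospheres was examined next. Of 9 members, 2 were higher and 6 lower, against 30.7% and 31.6% of the 19220 genes tested. MXI1 changed most, from 102, 95.9 and 86.5 CPM with vehicle to 20.1, 24.6 and 21.5 with DOX, which is 0.237 of the vehicle level (log2 fold change -2.08, standard error 0.07, adjusted p = 1.5e-15, edgeR). The groups were far apart, and MXI1 was the 1 member past a log2 fold change of 1.5, a size that 8.82% of all genes passed. MXD1 fell from 31.9, 34.1 and 30.0 to 19.6, 18.6 and 19.3 CPM (log2 fold change -0.72, adjusted p = 1.2e-08, edgeR), and MNT from 48.3, 44.03 and 43.5 to 35.1, 36.4 and 33.9 (log2 fold change -0.34, adjusted p = 3.7e-05, edgeR). No vehicle library of either gene overlapped a DOX library.

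MYC mRNA was not lower on MUC1 silencing. It stood at 241, 255 and 239 CPM with vehicle and 292, 294 and 273 with DOX, so each DOX library was above each vehicle library, a 1.19-fold difference (log2 fold change 0.25, standard error 0.04, adjusted p = 5.0e-05, edgeR). MAX was also higher, from 54.0, 60.5 and 59.0 to 65.9, 64.3 and 61.8 CPM (log2 fold change 0.17, adjusted p = 0.0113, edgeR). MXD4 did not pass the test, at 15.2 ± 0.694 and 14.5 ± 0.389 CPM (SD, n = 3 each; log2 fold change -0.05, 95% interval -0.21 to 0.12).

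The other calls on MUC1 silencing were less firm. MYCL changed by -0.57 on the log2 scale (adjusted p = 0.0397, edgeR) with overlapping libraries, and its call was lost without vehicle library 2, DOX library 1 or DOX library 3 (adjusted p = 0.184, 0.117 and 0.105, edgeR). MXD3 changed by -0.44 (adjusted p = 0.0176, edgeR), a call lost without vehicle library 1 (adjusted p = 0.101, edgeR). MLX changed by -0.13 (adjusted p = 0.0677, edgeR), and without vehicle library 1, DOX library 1 or DOX library 3 its adjusted p was 0.103, 0.236 and 0.226. The MLX call was also lost without a low-count filter, with at least 10 counts in every library and in the fit of all 21 libraries (adjusted p = 0.123, 0.245 and 0.126, edgeR). Scaling by library size alone moved the median over all genes by 0.17 on the log2 scale, with 7965 genes then higher and 4404 lower against 5892 and 6070. Under it 5 members were called, MYC and MAX still higher and MXI1, MXD1 and MNT still lower, whereas MXD4 and MLX turned to 0.12 and 0.036 on the log2 scale without passing the test.

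GO-203 gave small changes. Of 9 members, 2 were higher and 3 lower, beside 11.1% and 12.9% of the 18488 genes tested, and none passed a log2 fold change of 1.5, as 0.757% of all genes did. The untreated 3D libraries are the same ones that were set against 2D cells. MYC was at 590, 553 and 601 CPM without and 556, 536 and 601 with GO-203, and the log2 fold change was -0.012 with a 95% interval of -0.12 to 0.094 (adjusted p = 0.908, edgeR). MXI1 likewise showed no detectable difference (log2 fold change -0.035, 95% interval -0.16 to 0.094), nor did MAX (0.089, interval -0.033 to 0.21) or MYCL (0.032, interval -0.36 to 0.43).

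The falls under GO-203 were in MLX, MXD4 and MXD3. MLX went from 35.5, 33.5 and 33.7 to 29.0, 25.4 and 28.3 CPM (log2 fold change -0.28, adjusted p = 0.00386, edgeR), MXD4 from 19.1, 16.0 and 17.8 to 13.3, 14.4 and 13.3 (log2 fold change -0.33, adjusted p = 0.0110, edgeR), and MXD3 from 6.02, 6.23 and 5.84 to 4.32, 3.73 and 4.96 (log2 fold change -0.44, adjusted p = 0.0292, edgeR). In each the treated libraries were below the untreated ones. The MXD3 call was lost without GO-203 library 2 (adjusted p = 0.109, edgeR). The rises were in MXD1 (log2 fold change 0.20, adjusted p = 0.0903, edgeR) and MNT (0.14, adjusted p = 0.0939, edgeR). MNT lost its call when any of the 6 libraries was left out and with a replicate block (adjusted p = 0.101, edgeR), and MXD1 without 3D library 1, 3D library 3 or GO-203 library 3 (adjusted p = 0.164, 0.251 and 0.556, edgeR).

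In the tet-MYCshRNA line the targeted gene was lower with DOX by a moderate amount. MYC was at 439, 418 and 386 CPM with vehicle and 244, 279 and 297 with DOX, without overlap, and 0.651 of the vehicle level remained (log2 fold change -0.62, standard error 0.08, adjusted p = 9.1e-05, edgeR). Of the 9 members, MYC included, 2 were higher and 4 lower, beside 30.3% and 28.1% of the 19951 genes tested, and none passed a log2 fold change of 1.5, as 10.5% of all genes did. MXD4, whose promoter holds an E-box at -238, rose from 19.4, 17.7 and 17.02 to 24.9, 39.4 and 34.5 CPM. Its DOX libraries varied among themselves but each exceeded the vehicle libraries (log2 fold change 0.85, standard error 0.15, adjusted p = 6.94e-04, edgeR). MNT, with an E-box at -193, was at 35.8, 37.2 and 34.0 CPM with vehicle and 36.7, 54.0 and 51.0 with DOX. The groups overlapped through DOX library 1, and the change of 0.38 on the log2 scale (adjusted p = 0.0273, edgeR) lost its call without vehicle library 3, DOX library 2 or DOX library 3 (adjusted p = 0.117, 0.101 and 0.102, edgeR).

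MLX, with an E-box at -50, fell from 42.4, 38.4 and 35.4 to 28.1, 32.3 and 32.1 CPM (log2 fold change -0.35, adjusted p = 0.00944, edgeR). The 3 members with the motif therefore did not move one way. MXI1 fell from 46.1, 43.3 and 47.8 to 33.7, 39.5 and 42.4 CPM (log2 fold change -0.27, adjusted p = 0.0340, edgeR) and MAX from 80.2, 77.8 and 80.2 to 70.1, 67.6 and 74.9 (log2 fold change -0.18, adjusted p = 0.0349, edgeR), where a replicate block left MAX at an adjusted p of 0.104. The groups of both genes did not overlap. MYCL, MXD1 and MXD3 had log2 fold changes of -0.11, 0.19 and -0.11 with 95% intervals of -0.44 to 0.21, -0.042 to 0.42 and -0.47 to 0.24. The MXD1 value passed the test without DOX library 3 (log2 fold change 0.27, adjusted p = 0.0576, edgeR). It also passed in the fit of all 21 libraries (0.21, adjusted p = 0.0628, edgeR). The MXD3 value changed sign without DOX library 1, to 0.014. Neither had passed with all 6 libraries.

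The silencing effects were then compared directly, as the DOX effect in the tet-MUC1shRNA line minus that in the tet-MYCshRNA line, over 12 libraries. Of the 9 members 2 had a higher and 4 a lower effect with MUC1 silencing, beside 26.0% and 26.9% of 21585 genes tested. MXI1 differed most, by -1.83 on the log2 scale (standard error 0.13, adjusted p = 2.5e-09, edgeR), with changes of -2.08 and -0.27. MXD1 (difference -0.92, adjusted p = 5.9e-06, edgeR) fell on MUC1 silencing, and its change of 0.19 on MYC silencing did not pass. MXD4 (-0.91, adjusted p = 3.20e-04, edgeR) rose on MYC silencing and did not pass on MUC1 silencing, and MNT (-0.74, adjusted p = 5.13e-04, edgeR) had changes of -0.34 and 0.38. For MYC and MAX the difference was positive, at 0.85 (adjusted p = 9.0e-07, edgeR) and 0.34 (adjusted p = 0.00313, edgeR). Scaled by library size alone, 7260 genes had a higher and 4602 a lower effect against 5612 and 5808, all 9 members kept their direction, and MLX was also called (0.41, adjusted p = 0.00368, edgeR). Line and passage differ between the arms.

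To put activators and repressors on a common scale, the summed CPM per kb of MXD1, MXI1, MXD3, MXD4 and MNT was divided by that of MYC, MYCN and MYCL in each library. No test was made of this score. It was 1.01, 1.13 and 1.14 in the 2D libraries, and 0.255, 0.264 and 0.248 in the 3D libraries. The 2D value depends on the scale, at 1.45 with canonical transcript lengths, 1.20 with CPM and 0.841 without MNT, so no side was larger under each of them, while the 3D value was at most 0.274 under the same settings. GO-203 left it at 0.257 ± 0.00534 (SD, n = 3). With vehicle the tet-MUC1shRNA mammospheres had 0.728 ± 0.0491 and the tet-MYCshRNA mammospheres 0.258 ± 0.0153, and with DOX they had 0.289 ± 0.0115 and 0.444 ± 0.0317 (SD, n = 3 each). The ratio was lower with DOX in the tet-MUC1shRNA line and higher with DOX in the tet-MYCshRNA line, with no overlap of the libraries within either line. In the latter, MYC is the target of the hairpin and makes up nearly all of the denominator, so much of that rise is set by the design. The summed MYC family there was at 68.5 ± 4.34 CPM per kb with vehicle and 45.3 ± 4.47 with DOX, and the summed repressors at 17.6 ± 0.349 and 20.2 ± 2.77 with overlapping libraries (SD, n = 3 each). In the tet-MUC1shRNA line the summed repressors went from 29.5 ± 2.05 to 13.6 ± 0.454 CPM per kb, without overlap, and the MYC family from 40.5 ± 1.47 to 47.1 ± 1.92 (SD, n = 3 each).

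The make-up of the summed repressors was described next, per kb of exon union. MXD4 made up 33.1% ± 0.740 of the summed repressors in 2D cells and 10.5% ± 0.802 in 3D cells, while MXI1 went from 14.3% ± 0.778 to 46.6% ± 1.40 (SD, n = 3 each). With canonical transcript lengths, an alternative chosen after seeing the data, MXD3 took the largest share in 2D cells, at 37.2% in place of 18.3%, with MXD4 at 27.0% and MXI1 at 11.2%, while MXI1 had 45.1% in 3D cells. On MUC1 silencing the share of MXI1 went from 54.4% ± 0.822 to 27.4% ± 1.94, and MNT, at 29.7% ± 0.641, then took the largest share (SD, n = 3 each). In the MYC-silenced mammospheres the shares were 32.4% ± 2.10 for MXI1, 26.7% ± 1.73 for MNT and 23.5% ± 2.22 for MXD4 (SD, n = 3 each).

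**Figure D3:**
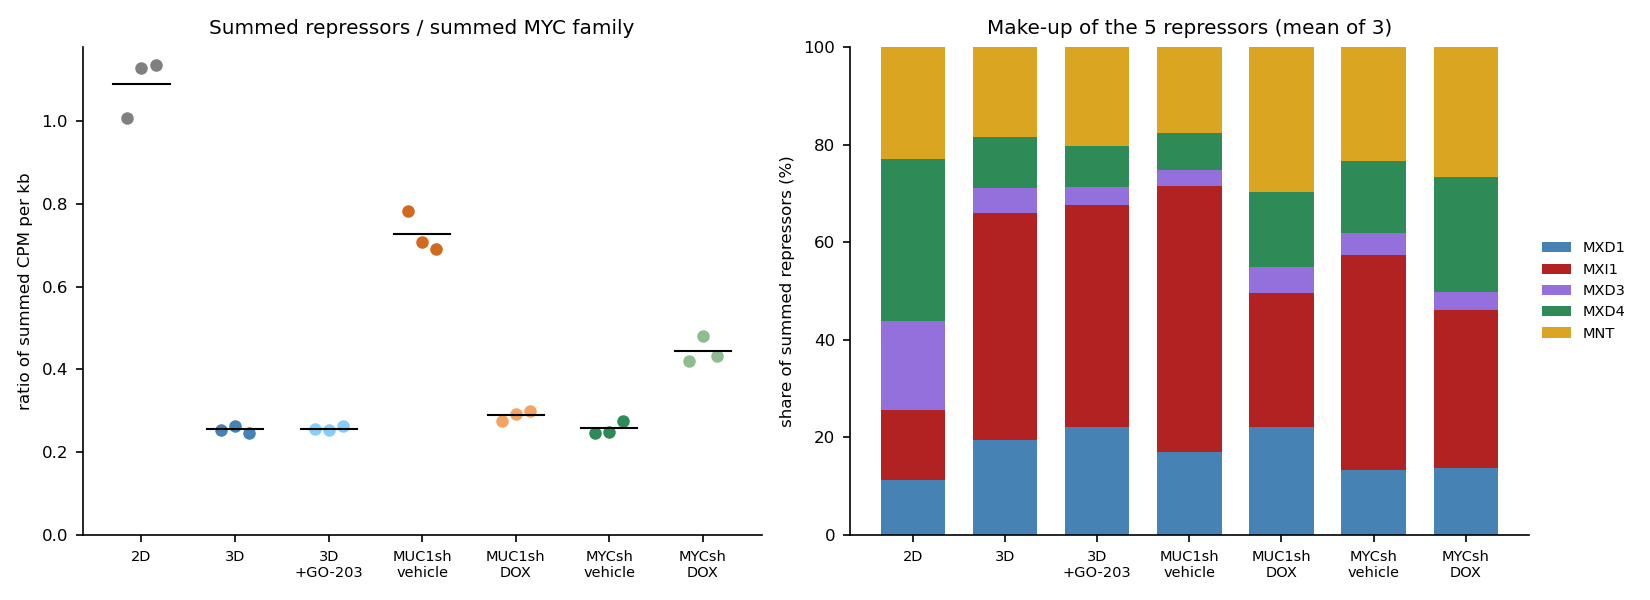
Left, the ratio of summed CPM per kb of the 5 repressors to that of the MYC family (y axis, from 0) in each of the 21 libraries, with the mean of 3 as a line. Right, the mean share in percent of each repressor in the summed repressors of the 7 conditions. The 2D libraries lie at 1.01 to 1.14 and the 3D libraries at 0.248 to 0.264, and MXI1 is the widest band in the untreated and vehicle-treated mammospheres.

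The network's partners and targets were read from lists of textbook genes. These lists were chosen with earlier results of these data known, so their counts are a description and no independent check. Of 20 genes that MYC is known to activate, 19 were lower and 0 higher on MYC silencing, beside 28.1% lower and 30.3% higher over all genes, and the median log2 fold change was -1.09 beside 0.0088. CDC25A, a phosphatase that drives the cell cycle, fell from 41.2 to 15.4 CPM (log2 fold change -1.44, adjusted p = 4.2e-07, edgeR). TERT, the telomerase catalytic subunit, was chosen after its values were seen, at 1.36, 0.955 and 0.964 CPM with vehicle and 0, 0.0344 and 0.0316 with DOX. It passed the count filter through its vehicle libraries alone, so its place among the 19 was largely fixed by the filter. LDHA, of glycolysis, was the 1 gene of the list that did not pass (log2 fold change -0.013, adjusted p = 0.875, edgeR). On MUC1 silencing 5 of the 20 were higher and 11 lower, beside 30.7% and 31.6% of all genes, with a median of -0.12 beside 0.024. CDC25A rose by 0.63 (adjusted p = 2.5e-08, edgeR) where LDHA fell by 0.88 on the log2 scale (adjusted p = 1.2e-11, edgeR).

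Between 3D and 2D cells, 15 of the 20 were higher and 3 lower, beside 32.0% and 31.7% of all genes (median 0.37 beside -0.0074), with LDHA at 1.21 and TFRC, the transferrin receptor, at -2.34 on the log2 scale. GO-203 went with 2 higher and 6 lower, beside 11.1% and 12.9% (median -0.13 beside 0.015), TFRC at 0.83 and the nucleolar gene FBL at -0.32, and without 3D library 1 there were 5 calls in place of 8. Of 9 genes that MYC is known to repress, 7 were tested on MYC silencing, 5 higher and 2 lower, beside 30.3% and 28.1% of all genes (median 0.80 beside 0.0088). CDKN2B, a CDK inhibitor, rose by 2.11 and GADD45A, a growth arrest gene, fell by 0.59 on the log2 scale (adjusted p = 6.2e-09 and 2.57e-04, edgeR).

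In 3D vs. 2D cells 4 of 6 MYC-repressed genes were higher and 2 lower, beside 32.0% and 31.7% of all genes, with NDRG1 at 6.42 and THBS1 at -3.53. On MUC1 silencing 2 of 8 were higher and 4 lower, beside 30.7% and 31.6%, with NDRG1 at -4.19 and THBS1, a matrix protein, at 4.43. Under GO-203, 3 of 7 were higher and 2 lower, beside 11.1% and 12.9%, with CDKN2B at 0.82 and NDRG1 at -0.64 (log2 fold changes).

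**Figure D4:**
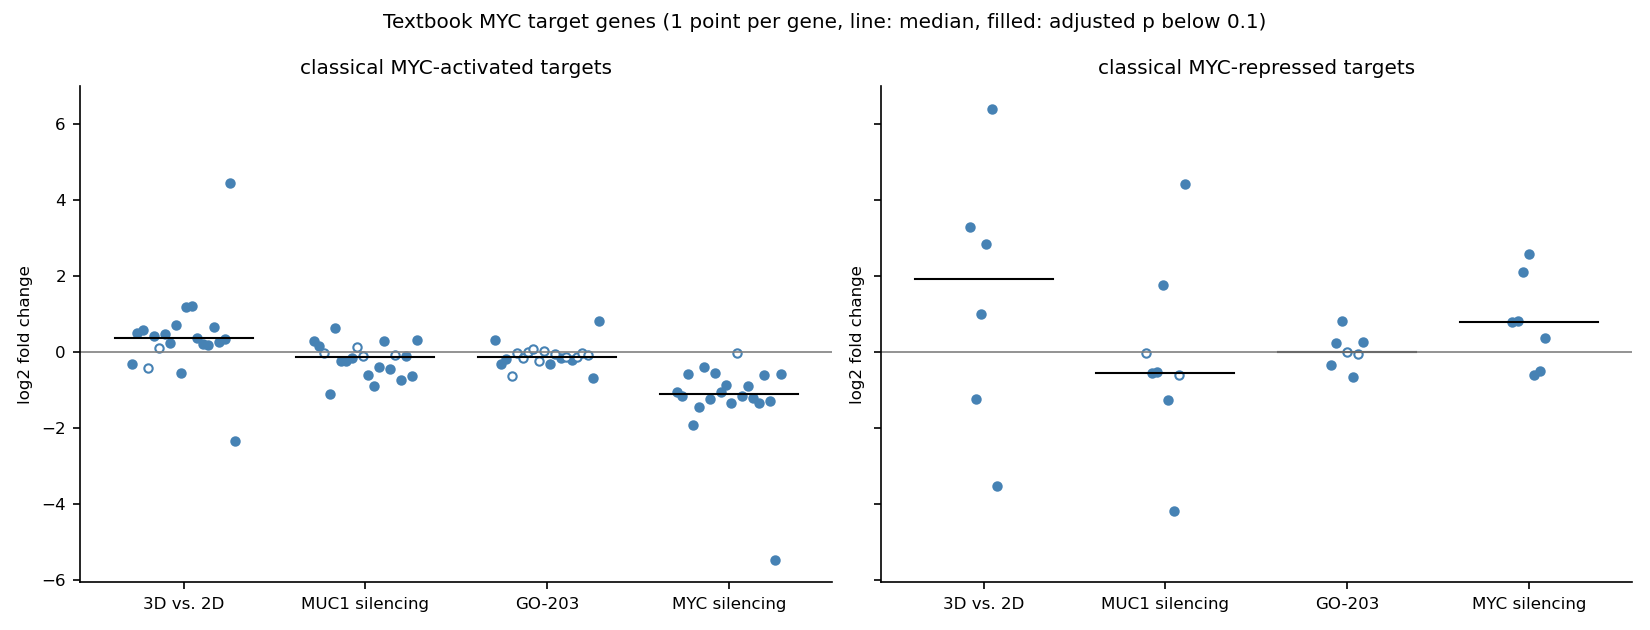
Log2 fold change (y axis) of the tested genes from lists of 20 MYC-activated (left) and 9 MYC-repressed (right) textbook targets in the 4 comparisons, 1 point per gene, filled at an adjusted p below 0.1, with the median as a line. On MYC silencing 19 of 20 activated targets are filled and below 0, while on MUC1 silencing the median is -0.12.

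TXNIP, a target of MondoA and MLX that restrains glucose uptake, was at 10.2 CPM in 2D and 396 in 3D cells, fell from 1074 to 407 CPM on MUC1 silencing (log2 fold change -1.38, adjusted p = 4.5e-15, edgeR), and rose on MYC silencing (0.74, adjusted p = 9.0e-06) and under GO-203 (0.32, adjusted p = 1.50e-04, both edgeR). A list of 5 further genes held the network proteins MGA, MLXIP and MLXIPL and the MondoA targets TXNIP and ARRDC4, the last of which was not tested. In 3D cells MLXIP, MLXIPL and TXNIP were higher and MGA lower, 3 and 1 of 4 tested beside 32.0% and 31.7% of all genes. MLXIPL, which encodes ChREBP, stood at 0 CPM in the 2D libraries and 0.208, 0.508 and 0.233 in 3D cells. It passed the count filter through its 3D libraries alone, so its call was largely fixed by the filter and adds nothing to that count. MGA, a MAX-binding repressor, rose by 0.22 on MUC1 silencing, where MLXIP and TXNIP were lower, 1 and 2 of 3 tested beside 30.7% and 31.6%, and MLXIP, which encodes MondoA, fell by 0.47 on MYC silencing, where MGA and TXNIP were higher, 2 and 1 of 3 beside 30.3% and 28.1%. Under GO-203 the target TXNIP alone passed of 4 tested, beside 11.1% higher and 12.9% lower, and none of the 3 network proteins did. This count was 2 without 3D library 2 or GO-203 library 3.

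Of 12 MYC cofactors, 7 were lower and 0 higher on MYC silencing, beside 28.1% and 30.3% of all genes, led by RUVBL1, an ATPase of chromatin remodelling complexes, at -1.45 on the log2 scale (adjusted p = 2.7e-07, edgeR). In 3D vs. 2D cells 6 were higher and 2 lower, beside 32.0% and 31.7%, with CCNT1, a cyclin of transcription elongation, at 0.78 and HCFC1 at -0.31. On MUC1 silencing 1 was higher and 5 lower, beside 30.7% and 31.6%, with EP400 at 0.49 and CCNT1 at -0.50. Under GO-203 the counts were 0 and 4, beside 11.1% and 12.9%, with RUVBL2 at -0.25, a call lost without 3D library 1 or GO-203 library 3 (adjusted p = 0.124 and 0.131, edgeR).

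The SIN3 and HDAC corepressor, through which the MXD proteins act, counted 14 genes. In 3D vs. 2D cells 7 were higher and 3 lower, beside 32.0% and 31.7% of all genes, with RBBP7 at 0.87 and HDAC2 at -0.32. On MUC1 silencing 3 were higher and 6 lower, beside 30.7% and 31.6%, with SUDS3 at 0.31 and SAP30 at -1.42. On MYC silencing the counts were again 3 and 6, beside 30.3% and 28.1%, with ARID4A at 0.47 and HDAC2 at -0.57. Under GO-203 0 were higher and 4 lower, beside 11.1% and 12.9%, and HDAC1 fell by 0.42 (adjusted p = 1.2e-05, edgeR). This count of 4 was 2 without 3D library 1, GO-203 library 1 or GO-203 library 3, and 1 without 3D library 2.

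Of 15 genes of MYC protein turnover, 7 were higher and 3 lower in 3D cells, beside 32.0% and 31.7% of all genes, with the deubiquitinase USP28, which opposes MYC degradation, at 1.01. USP28 fell by 0.88 on MUC1 silencing (adjusted p = 6.7e-11, edgeR), where 3 genes were higher, GSK3B among them at 0.38, and 6 lower, beside 30.7% and 31.6%. AURKA, a mitotic kinase that shields MYC proteins from degradation, was at -0.38 in 3D cells, -0.40 under GO-203, where 0 genes were higher and 5 lower beside 11.1% and 12.9%, and -1.34 on MYC silencing, where 3 were higher, GSK3B at 0.47, and 6 lower beside 30.3% and 28.1%. These are mRNA levels, and the counts hold no protein. The study immunoblotted MYC and reported lower expression in 3D cells when MUC1-C was silenced or targeted with GO-203. MYC mRNA here was not detectably lower in either comparison. The GO-203 dose of the blots differed from that of these libraries.

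Of the transcripts beside MYC-family genes, PVT1, a long noncoding RNA downstream of MYC, was at 19.9 to 25.9 CPM in 2D and 24.7 to 30.3 in 3D cells with overlapping libraries (log2 fold change 0.29, adjusted p = 0.0324, edgeR), a call lost without 2D library 2, 2D library 3 or 3D library 2. It lay at 36.3 to 41.7 with vehicle and 41.7 to 49.1 with DOX in the tet-MUC1shRNA line (log2 fold change 0.20, adjusted p = 0.0192, edgeR), a call lost without vehicle or DOX library 3 and in the fit of all 21 libraries (adjusted p = 0.165, edgeR). Under GO-203, with overlapping libraries, it changed by 0.27 (adjusted p = 0.0269, edgeR), a call lost without 3D library 1, 3D library 3 or GO-203 library 2 and in the fit of all 21 libraries. On MYC silencing it did not pass (-0.11). CASC11, whose exons lie opposite 3.18% of those of MYC, stayed at or below 0.444 CPM and MYCL-AS1 at or below 0.0680.

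The genes whose pattern over the 21 libraries was most like that of MYC were chosen by Pearson's r of log2(CPM + 1) among 12290 genes. They were NUP210 (r = 0.980), WARS2-AS1 (0.963), SLCO4C1 (0.955), VGF (0.955) and DUXAP8 (0.943), and the libraries share 7 conditions, so r describes these and has no p. NUP210, a nuclear pore protein, was at 1.72 CPM in 2D, 134 in 3D, 112 in GO-203-treated, 28.2 and 42.4 in vehicle- and DOX-treated tet-MUC1shRNA and 50.7 and 19.2 in vehicle- and DOX-treated tet-MYCshRNA cells. By Spearman's rho, 2 of these 5 stayed among the first 5. Of the other members, MYCL came closest by Pearson (r = 0.774), followed by MXI1 (0.712), with MXD4 at -0.650 and MXD3 at -0.631. By Spearman MAX came closest (rho = 0.821), with MYCL at 0.542, MXI1 at 0.462, MXD4 at -0.344 and MXD3 at -0.0909.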

How the data were processed

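Stranded mRNA libraries were sequenced from 21 samples of 7 groups, taken from the labels. The authors aligned reads to GRCh38 (STAR 2.7.3a, per the submitters' processing notes, where the study's methods name another version), counted them per gene with featureCounts and deposited raw counts without normalization. The annotation release and strand setting are not given in the sources used here. Genes without a value in a block of libraries were read as 0, since no listed gene totals 0 in its comparison. Positions and exon lengths are those of GENCODE release 44. Members and lists were chosen with earlier results of these data known.

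In R 4.3.3, each pair of groups was fitted on its 6 libraries with edgeR 4.0.16 (filterByExpr, TMM factors, quasi-likelihood test, Benjamini-Hochberg over all genes tested), and a gene was called at an adjusted p below 0.1. Standard errors are the log2 fold change divided by the square root of F. The difference of silencing effects was an interaction over 12 libraries. CPM used TMM factors and library sizes of the genes kept by filterByExpr over 21 libraries. All members, MUC1, the largest non-overlapping rise and fall of each list (mean normalized count of at least 100) and the 5 genes most like MYC were named, and TERT and MLXIPL were added after their values were seen. Libraries of one group always differed beyond counting noise (chi-square per degree of freedom 4.13 to 45.6). Alternatives were DESeq2 1.42.0, RLE factors, library size alone, other filters, all 21 libraries in one fit, a replicate block, a stricter threshold of 0.05, the tet-MUC1shRNA vehicle libraries set against 2D cells and each library left out in turn. The scripts of the pairwise fits (edgeR and DESeq2) and of the interaction were run on simulated counts first. Figures were drawn with matplotlib.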

Additional observations from a re-analysis of the deposited data

Results flagged for a closer look

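For 6 members the change on MUC1 silencing differed from the change on MYC silencing in the interaction test over 12 libraries, 6 of the 9 tested beside 52.9% of all genes. The difference in log2 fold change, MUC1 silencing minus MYC silencing, was 0.85 for MYC, 0.34 for MAX, -0.92 for MXD1, -1.83 for MXI1, -0.91 for MXD4 and -0.74 for MNT. Each kept its direction and its call in all 12 fits that left out a library, where the MXI1 difference ran from -1.92 to -1.76 and the MAX difference from 0.29 to 0.37. MYC is the target of the hairpin in one arm, so its difference is in part set by the design.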

How the results depend on the processing

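Of the members' log2 fold changes under the alternatives, 134 of 135 kept their direction and call in 3D vs. 2D cells, 110 of 126 on MUC1 silencing, 102 of 126 under GO-203, 119 of 126 on MYC silencing and 165 of 171 for the difference of the silencing effects. The mean correlation of same-numbered libraries was -0.0541, 0.0384, 0.149 and -0.234 for the 4 comparisons in the order above. Of 3 libraries each, 0, 2, 3 and 0 correlated best with their own number. Replicate numbers thus showed no clear pairing in 3D vs. 2D cells or on MUC1 or MYC silencing. Under GO-203 a weak pairing stays possible, which the main fit did not model. The replicate block called 9, 8, 4 and 5 of 9 members, beside 61.5%, 62.0%, 26.9% and 52.5% of all genes, and 6 for the difference, beside 49.1%. MAX on MYC silencing and MNT under GO-203 lost their calls with it (adjusted p = 0.104 and 0.101, edgeR).

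Library size alone called 5 members on MUC1 silencing, beside 64.4% of all genes, and MXD4 and MLX there turned to 0.12 and 0.036, as MXD4 did with at least 10 counts in every library (0.0051). DESeq2, the fit of all 21 libraries and an adjusted p below 0.05 each called 3 members under GO-203 in place of 5, beside 29.7%, 17.2% and 18.7% of all genes in place of 24.1%. With the tet-MUC1shRNA vehicle libraries set against 2D cells, MAX was at -0.17. Without a low-count filter, 2 transcripts beside MYC-family genes were called on MUC1 silencing and 2 corepressor genes under GO-203, where an adjusted p below 0.05 left 1 corepressor gene and the 21-library fit 0 of the transcripts. With 1 library left out at a time there were 3 to 4 members under GO-203, 1 to 2 genes of the list of MGA, MondoA and ChREBP with their targets, 1 to 4 corepressor genes and 5 to 8 activated targets there, and 0 to 1 transcripts beside MYC-family genes in 3D vs. 2D cells, under GO-203 and on MYC silencing, and 0 to 2 on MUC1 silencing. Under GO-203 the leave-one-out log2 fold changes crossed 0 for MYC (-0.049 to 0.0088), MYCL (-0.078 to 0.12) and MXI1 (-0.10 to 0.0072), as they did for MXD3 on MYC silencing (-0.19 to 0.014).

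The ratio of repressors to MYC family, in the order 2D, 3D, GO-203, tet-MUC1shRNA vehicle and DOX, tet-MYCshRNA vehicle and DOX, was 1.20, 0.274, 0.279, 0.777, 0.328, 0.283 and 0.503 with CPM in place of CPM per kb, and 0.841, 0.209, 0.205, 0.599, 0.203, 0.198 and 0.325 without MNT. With canonical transcript lengths, an alternative chosen after seeing the data, it was 1.45, 0.274, 0.267, 0.761, 0.308, 0.279 and 0.477. By Spearman's rho, 2 of the 5 genes most like MYC remained. MYCN was below the floor of 3 counts in each library, and MYCL and MXD3 rest on the fewest counts of the other members.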
